A study of Mus musculus with 30 samples.

Results

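A pair of gene families, each a cluster of duplicate genes on its own chromosome, was followed in kidney and gastrocnemius muscle, namely *Ces1d*, *Ces1e*, *Ces1f* and *Ces1g* of the carboxylesterase 1 cluster and *Nat8*, *Nat8f1*, *Nat8f2* and *Nat8f5* of the N-acetyltransferase 8 cluster. These 8 genes were taken by symbol from the 54838 genes of the kidney count table and the 55487 genes of the gastrocnemius table. They were chosen by name with their differences between the diet and CHP groups in the same libraries already known, so these differences are given as descriptions, without a p-value of their own. All 8 passed the filter on low counts in kidney and 4 (*Ces1d*, *Ces1e*, *Ces1f* and *Nat8f1*) passed it in gastrocnemius.

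Both tissues came from wild-type male C57BL/6J mice that had been moved to thermoneutrality (30 to 32 °C) when 6 weeks old. From Week 7 the CD group ate a chow diet and received water, the WD group ate a western diet and received water, and the WD + CHP group ate the western diet and was gavaged with CHP, the cyclic dipeptide cyclo(His-Pro), on 3 occasions a week (20 mg/kg each). Tissue was collected at Week 24 after a fast of 3 h. RNA-seq of whole tissue gave 5 libraries per group and tissue, 30 in all, with 37189192 to 38211422 counted reads in kidney and 50319024 to 53282969 in gastrocnemius. All markers of the proximal tubule (15 of 15) passed the filter in kidney and 2 did in gastrocnemius, and of 12 fast muscle fibre markers 4 and 12 passed, although the sample labels name frozen liver as the source of the RNA of all 30 libraries. In whole tissue, fewer cells of a type and less RNA per cell cannot be told apart. Liver transcripts stood out in a few libraries. Levels are given as CPM, the count scaled to the library's size. Albumin reached 424 CPM in kidney WD replicate 5 and 81.4 CPM in kidney CD replicate 1, against 8.98 to 27.8 CPM in the other 13 kidney libraries, and it reached 47.8, 10.4 and 48.6 CPM in gastrocnemius CD replicate 1, WD replicate 2 and WD replicate 3. The 12 hepatocyte markers summed to 154 to 344 CPM in kidney CD, 187 to 961 CPM in WD and 211 to 322 CPM in WD + CHP. For WD vs. CD 1 was called higher and 1 lower, beside 9.65% of all genes. At an unadjusted p under 0.05 by edgeR there were 5, beside 24.9% of all genes, and the list's median log2 fold change was 1.86. Results were also computed without the libraries rich in liver transcripts, a setting added after the data were seen.

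Carboxylesterases of family 1 are serine hydrolases of the endoplasmic reticulum that split ester, thioester and amide bonds of drugs and lipids, and they are best known from the liver. *Ces1d* encodes a triacylglycerol hydrolase of hepatocytes and adipocytes. *Ces1e* encodes egasyn, which holds β-glucuronidase, the product of *Gusb*, in the endoplasmic reticulum. *Ces1f* encodes a further carboxylesterase of liver and fat, and *Ces1g* encodes a carboxylesterase that takes part in hepatic lipid handling. NAT8 performs the last step of the mercapturate pathway in the proximal tubule, in which glutathione conjugates are trimmed to cysteine conjugates and then acetylated for excretion in urine. *Nat8f1*, *Nat8f2* and *Nat8f5* encode related N-acetyltransferases, also known as camello-like proteins.

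All genes of either cluster lie in a row on the minus strand of the mouse genome (GRCm38, GENCODE M21). The 4 *Ces1* genes span chr8:93166068-93337308, inside a run of 8 genes from *Ces1a* to *Ces1h* that covers 359.5 kb, and each has 14 exons in its longest model. The 4 *Nat8* genes span chr6:85817218-85915687, inside a run of 8 genes from *Nat8f7* to *Nat8f1* that covers 209.0 kb, and they have 2 or 3 exons. *Ces1d* lies at chr8:93166068-93197838, *Ces1e* at chr8:93201218-93229619, *Ces1f* at chr8:93256236-93279747 and *Ces1g* at chr8:93302369-93337308. *Nat8f5* lies at chr6:85817218-85820972, *Nat8* at chr6:85830388-85832082, *Nat8f2* at chr6:85865422-85869158 and *Nat8f1* at chr6:85910154-85915687. The order along chromosome 6 is *Nat8f7*, *Nat8f3*, *Nat8f6*, *Nat8f5*, *Nat8*, *Nat8f2*, *Nat8f4* and *Nat8f1*. The copies differ in how far short reads can tell them apart. Of all 100-base stretches of the *Ces1d*, *Ces1e*, *Ces1f* and *Ces1g* transcripts, 0% occurred in another gene, and of the 50-base stretches at most 3.14% (*Ces1e*). For *Nat8*, *Nat8f5* and *Nat8f2* the share of 100-base stretches was 1.07%, 4.17% and 6.78%. The counts of *Nat8f1* are less certain. In *Nat8f1* 34.1% of these stretches were shared, mostly with *Tprkb*, which overlaps 478 of its exon bases (35.5%) on the opposite strand, and whether the authors counted by strand is not given in the sources used here. *Nat8f3*, *Nat8f6* and *Nat8f7* shared 72.6%, 50.1% and 68.3% of their 100-base stretches with other genes, largely with each other, so the split of reads among these 3 is uncertain.

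The sequences before the gene starts are shown for paralogs whose kidney levels differed most between the diets and for close relatives that moved less or the other way. RefSeq promoter windows (GRCm38.p6, 250 bases before to 50 after the start, 5′ to 3′ on the minus strand) were matched by symbol for 6 of the 8 genes, all but *Ces1d* and *Ces1f*. Those of *Nat8f5* (chr6:85820923-85821222), *Nat8f6* (chr6:85809828-85810127), *Nat8f2* (chr6:85869088-85869387), *Ces1g* (chr8:93337160-93337459) and *Ces1e* (chr8:93229570-93229869) are printed below, with capitals for the letters CCAAT on either strand (on the other strand they read ATTGG).
Nat8f5: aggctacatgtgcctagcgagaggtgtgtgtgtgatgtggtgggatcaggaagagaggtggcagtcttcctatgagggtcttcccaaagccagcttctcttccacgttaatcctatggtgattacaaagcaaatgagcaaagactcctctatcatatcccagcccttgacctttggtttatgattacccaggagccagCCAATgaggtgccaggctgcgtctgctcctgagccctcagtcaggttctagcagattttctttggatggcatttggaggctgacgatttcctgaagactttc
Nat8f6: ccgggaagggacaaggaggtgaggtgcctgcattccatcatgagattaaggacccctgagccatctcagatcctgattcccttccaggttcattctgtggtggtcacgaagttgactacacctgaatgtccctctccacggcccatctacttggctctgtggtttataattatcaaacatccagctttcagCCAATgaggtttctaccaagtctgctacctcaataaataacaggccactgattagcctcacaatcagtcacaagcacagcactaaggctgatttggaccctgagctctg
Nat8f2: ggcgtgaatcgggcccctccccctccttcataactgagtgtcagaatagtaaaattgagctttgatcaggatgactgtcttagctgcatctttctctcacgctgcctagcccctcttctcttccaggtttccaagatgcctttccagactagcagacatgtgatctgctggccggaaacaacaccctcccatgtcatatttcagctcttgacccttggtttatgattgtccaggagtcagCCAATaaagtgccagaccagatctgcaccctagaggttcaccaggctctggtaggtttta
Ces1g: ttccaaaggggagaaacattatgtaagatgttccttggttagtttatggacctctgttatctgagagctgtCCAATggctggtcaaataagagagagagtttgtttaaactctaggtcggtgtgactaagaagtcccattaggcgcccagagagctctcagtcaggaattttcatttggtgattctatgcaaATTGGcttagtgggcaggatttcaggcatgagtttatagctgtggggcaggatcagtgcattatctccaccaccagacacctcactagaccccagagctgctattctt
Ces1e: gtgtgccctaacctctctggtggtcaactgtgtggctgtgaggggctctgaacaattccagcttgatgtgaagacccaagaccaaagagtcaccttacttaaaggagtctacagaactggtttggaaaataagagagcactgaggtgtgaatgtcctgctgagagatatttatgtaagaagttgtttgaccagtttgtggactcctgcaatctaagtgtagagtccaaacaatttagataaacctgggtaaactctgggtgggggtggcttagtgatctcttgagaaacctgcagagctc
CCAAT, the box read by the factor NF-Y, began 52, 59 and 10 bases before the start of *Nat8f5*, *Nat8f6* and *Nat8f2*, and 67 bases before that of *Nat8f7*. In the *Ces1g* window it lay on both strands, at 179 and 58 bases before the start, and the *Ces1e* window held none of these letters. In the window of the second of 2 starts listed for *Nat8* (chr6:85832230-85832529) it began at positions -241 on one strand and -199 on the other, counted from that RefSeq start. Of the 2 windows listed for *Nat8f4*, which was lower in WD, 1 held it at position -28, and the window of *Nat8f3*, which was higher in WD, held none, as did that of *Nat8f1* and the first of *Nat8*. Of all 32851 promoter windows of the same length, 37.4% held CCAAT on either strand. The *Nat8f6* and *Nat8f7* windows matched at 97.9% of 292 aligned bases. Those of *Nat8f5* and *Nat8f2* aligned over 70 bases only, at 82.9%, and those of *Ces1e* and *Ces1g* over 55 bases at 74.5%. The RefSeq starts differ from the GENCODE models for some genes. The *Nat8f6* window lies inside that gene's GENCODE model (chr6:85808024-85820954). On the minus strand that model begins at 85820954, near the start of *Nat8f5* at 85820972, so the printed window is not that of its outermost start. Both *Nat8* windows lie wholly before the GENCODE model of *Nat8*.

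The first comparison asks how the western diet at thermoneutrality bore on the clusters in kidney. WD feeding went with higher *Nat8f5*, *Nat8*, *Ces1d* and *Ces1e* and lower *Ces1g*, while *Ces1f*, *Nat8f1* and *Nat8f2* overlapped with the controls and were not called. Of the 8 genes, 5 were called by edgeR's quasi-likelihood test at an adjusted p under 0.05, beside 9.65% of the 17120 genes tested in kidney. Of these, 4 were higher (4.62% of all genes) and 1 was lower (5.03%). The same 5 genes had WD and CD libraries that did not overlap, as did 8.7% of all genes. The median log2 fold change was 0.33 over the 8 genes and 0.00 over all genes tested. Because earlier results guided the choice of genes, nothing is read from these shares.

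*Ces1g* fell the most. It measured 23.2, 24.4, 16.5, 48.1 and 23.4 CPM in the CD libraries, 5.94, 4.72, 2.57, 9.13 and 8.66 CPM in the WD libraries and 5.69, 6.95, 1.28, 2.52 and 4.47 CPM in the WD + CHP libraries. Every library on the western diet was below every CD library. The group means were 27.1 ± 12.1 CPM in CD and 6.20 ± 2.74 CPM in WD (SD, n = 5), a 4.37-fold lower mean, with a log2 fold change of -2.13 (SE 0.37). Over all settings tried, each library left out included, the log2 fold change lay between -2.33 and -1.81.

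*Ces1d* and *Ces1e* went the other way. *Ces1d* measured 315, 277, 281, 310 and 217 CPM in CD, 415, 379, 475, 373 and 388 CPM in WD and 403, 320, 384, 360 and 375 CPM in WD + CHP. The WD and WD + CHP libraries all exceeded the CD libraries, and the log2 fold change of WD vs. CD was 0.54 (SE 0.09). *Ces1e* measured 87.6, 94.9, 71.6, 83.3 and 82.5 CPM in CD, 113, 103, 115, 121 and 113 CPM in WD and 105, 100, 105, 111 and 121 CPM in WD + CHP. Again no library on the western diet overlapped the CD group, with a log2 fold change of 0.43 (SE 0.07). *Gusb*, whose product egasyn binds, was not called (log2 fold change 0.07, adjusted p = 0.80 by edgeR) and lay at 26.8 to 34.9 CPM in CD, 29.1 to 33.9 CPM in WD and 28.8 to 53.7 CPM in WD + CHP.

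*Ces1f* was the most abundant of the 4 per length and did not pass the test. It ranged from 661 to 872 CPM in CD, from 653 to 794 CPM in WD and from 747 to 913 CPM in WD + CHP. The 3 groups overlapped, with a log2 fold change of WD vs. CD of -0.06 (SE 0.07, 95% interval -0.23 to 0.10). Per kilobase of exon, *Ces1f* stood at 237 ± 23.5 CPM per kb in CD, *Ces1d* at 118 ± 16.4, *Ces1e* at 38.4 ± 3.87 and *Ces1g* at 11.4 ± 5.09 (SD, n = 5), an order that was the same in WD. The share of *Ces1d* in the summed CPM per kb of the 4 genes was 29.1% ± 2.08 in CD and 37.9% ± 3.24 in WD, that of *Ces1f* 58.6% ± 1.84 and 50.2% ± 2.78, and that of *Ces1g* 2.79% ± 1.11 and 0.574% ± 0.247. The libraries of the 2 diets did not overlap in any of these 3 shares, while the share of *Ces1e* reached 11.1% in CD and 12.1% in WD, with overlap.

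**Figure D1:**
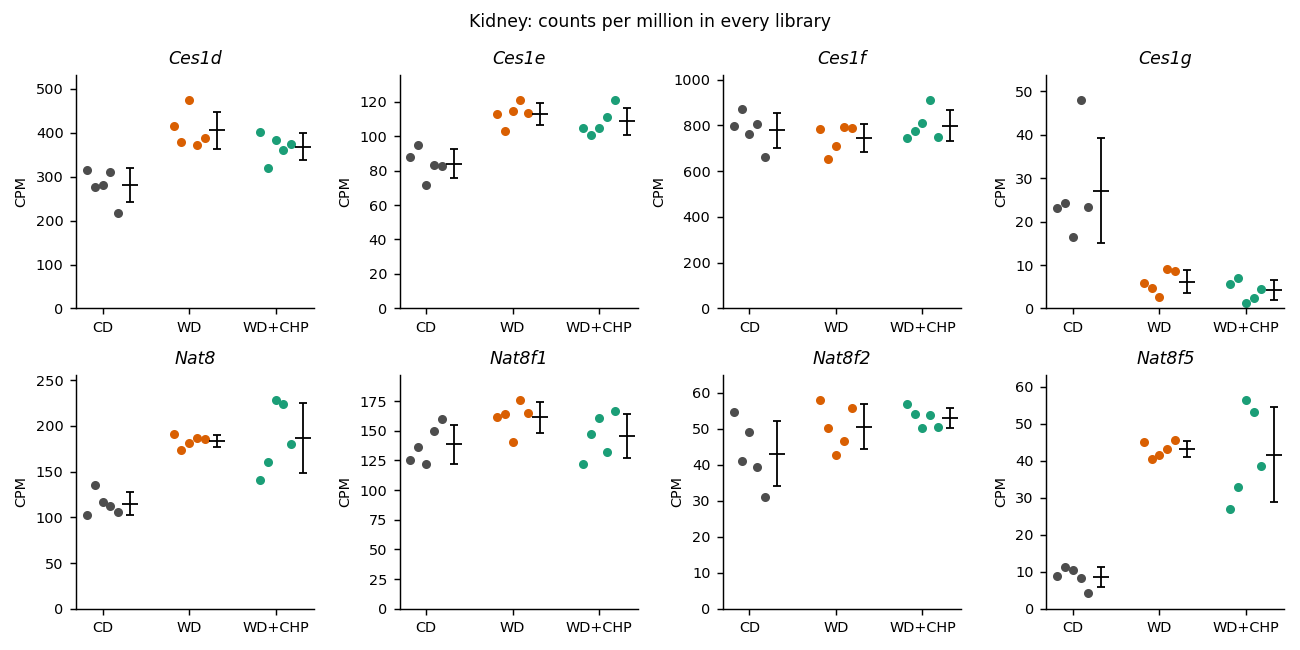
CPM (linear axis from 0) of each gene in each kidney library, as points for replicates 1 to 5 from left to right, with the group mean and SD beside them (n = 5). *Nat8f5* lay at 4.15 to 11.3 CPM in CD and 27.0 to 56.4 CPM in the groups on the western diet, and *Ces1g* went from 16.5 to 48.1 CPM in CD to at most 9.13 CPM.

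Among the *Nat8* genes, *Nat8f5* differed the most. It measured 8.75, 11.3, 10.5, 8.28 and 4.15 CPM in CD, 45.0, 40.5, 41.6, 43.1 and 45.6 CPM in WD and 27.0, 32.8, 56.4, 53.2 and 38.5 CPM in WD + CHP. The lowest library on the western diet was above the highest CD library. The mean was 5.02-fold higher in WD, with a log2 fold change of 2.33 (SE 0.22) that lay between 2.16 and 2.45 in all settings tried. *Nat8*, the mercapturate enzyme itself, measured 103, 135, 117, 112 and 106 CPM in CD, 192, 174, 182, 187 and 185 CPM in WD and 140, 161, 229, 224 and 180 CPM in WD + CHP. These groups did not overlap CD either, and the log2 fold change of WD vs. CD was 0.68 (SE 0.11).

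*Nat8f1* and *Nat8f2* were not called. *Nat8f1* ranged from 122 to 160 CPM in CD and from 140 to 176 CPM in WD, with a log2 fold change of 0.22 (SE 0.09, 95% interval 0.03 to 0.42), while *Tprkb*, which shares its exon bases, had -0.19 (SE 0.08). *Nat8f2* ranged from 31.1 to 54.6 CPM in CD and from 42.5 to 58.0 CPM in WD, with a log2 fold change of 0.23 (SE 0.12, 95% interval -0.02 to 0.49). Both genes overlapped between the diets. Per kilobase, *Nat8* (102 ± 11.2 CPM per kb) and *Nat8f1* (103 ± 12.0) stood level in CD within their SD, ahead of *Nat8f2* (13.0 ± 2.75) and *Nat8f5* (8.71 ± 2.81). In WD *Nat8* was at 164 ± 5.95, *Nat8f1* at 120 ± 9.70, *Nat8f5* at 43.8 ± 2.23 and *Nat8f2* at 15.3 ± 1.92, so *Nat8f5* passed *Nat8f2* in that order. Its share of the 4 genes was 3.84% ± 1.20 in CD and 12.8% ± 0.427 in WD, while that of *Nat8f1* was 45.4% ± 4.81 and 35.0% ± 1.82, each without overlap between the diets. The sum of the 4 was 227 ± 13.1 CPM per kb in CD and 343 ± 15.2 CPM per kb in WD. *Nat8f1* was scaled by 1345 merged exon bases of 3 transcript models, while its longest coding transcript has 1021 bases. Part of its exon bases also overlaps *Tprkb*. Its level beside *Nat8*, the shares and the sum are uncertain to that extent.

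**Figure D2:**
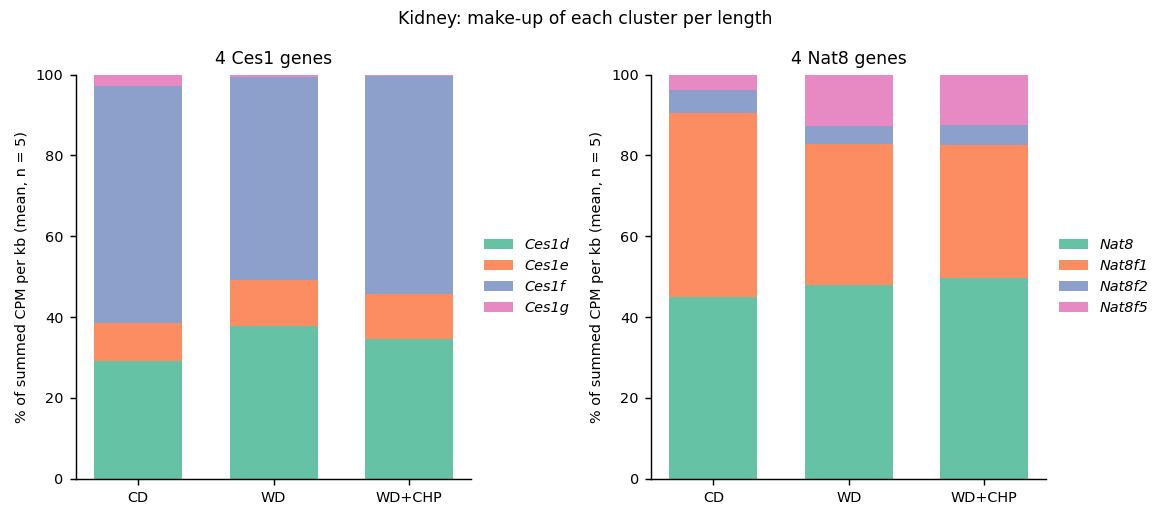
Mean share (%, n = 5) of each gene in the summed CPM per kilobase of exon of the 4 *Ces1* genes (left) and the 4 *Nat8* genes (right) in kidney, as stacked bars from 0 to 100 for the CD, WD and WD + CHP groups. *Ces1g* shrank from 2.79% in CD to 0.574% in WD, and *Nat8f5* grew from 3.84% to 12.8%.

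The neighbours in the same clusters are outside the 8 genes, although they too were listed with earlier results known. In kidney WD vs. CD, *Nat8f6* rose with a log2 fold change of 1.18 (SE 0.20, adjusted p = 0.0018 by edgeR), *Nat8f7* with 0.85 (SE 0.24, adjusted p = 0.031) and *Nat8f3* with 0.73 (SE 0.18, adjusted p = 0.015). *Nat8f4*, between *Nat8f2* and *Nat8f1*, fell with -0.25 (SE 0.07, adjusted p = 0.023). The 5 genes with a positive call, members included, thus followed each other from *Nat8f7* to *Nat8*, and the 3 from *Nat8f2* to *Nat8f1* held no positive call. Reads of *Nat8f3*, *Nat8f6* and *Nat8f7* cannot be fully separated, and *Nat8f5* and *Nat8f6* share 135 exon bases on the same strand. Without kidney CD replicate 1, without CD replicate 2, without WD replicate 3, or without both libraries rich in liver transcripts, the calls among these neighbours were 2, *Nat8f3* and *Nat8f6*, in place of 4. In the *Ces1* cluster, *Ces1c*, the plasma carboxylesterase made by liver, was the one further gene that passed the filter. It read 12.4 CPM in WD replicate 5, 1.18 CPM in CD replicate 1 and at most 0.555 CPM in the other kidney libraries, and the former 2 are also the kidney libraries with the most albumin. The 5 calls among the 8 genes were made without those 2 libraries too, with log2 fold changes of 2.32 (SE 0.26) for *Nat8f5*, 0.64 (SE 0.13) for *Nat8*, 0.60 (SE 0.10) for *Ces1d*, 0.44 (SE 0.08) for *Ces1e* and -2.33 (SE 0.42) for *Ces1g*.

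**Figure D3:**
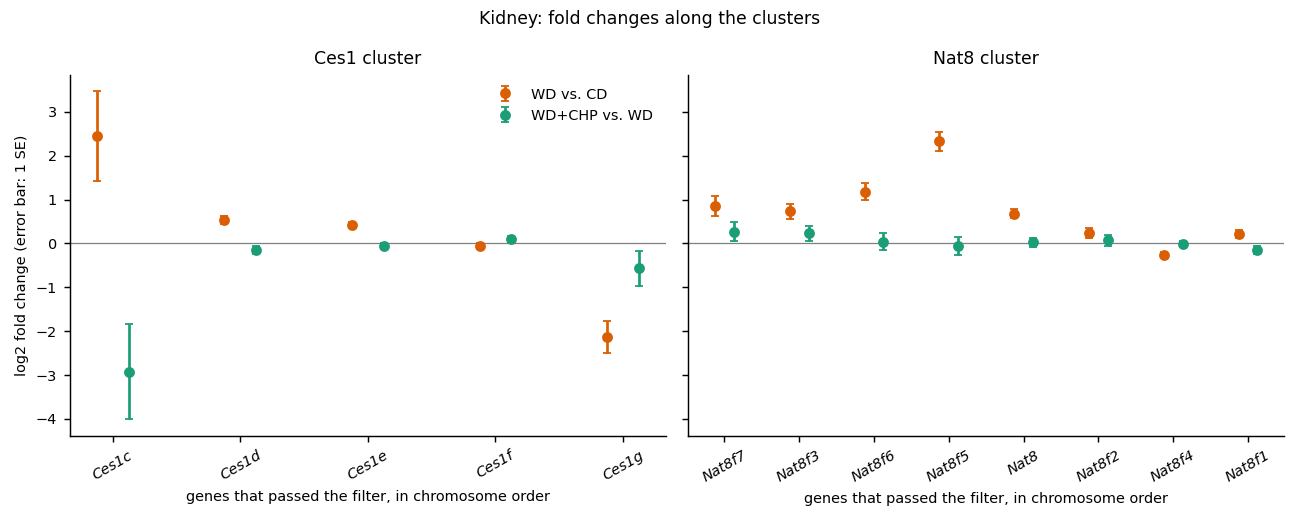
Log2 fold change with 1 SE (edgeR, vertical axis) of every gene of the 2 clusters that passed the filter in kidney, ordered along the chromosome, for WD vs. CD and WD+CHP vs. WD. For WD vs. CD *Nat8f5* stood at 2.33 with lower values to either side and *Ces1g* at -2.13, and *Ces1c* has a wide error (SE 1.03) with WD replicate 5 at 12.4 CPM and the other WD libraries at most at 0.271 CPM.

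The second comparison asks whether CHP given with the western diet altered these genes in kidney. No member was called for WD + CHP vs. WD (0 of 8 by edgeR, DESeq2 and limma-voom, and 0 at an unadjusted p under 0.05 by edgeR), beside 0.105% of all genes, and no member had groups that did not overlap, beside 2.36%. *Nat8f5* had a log2 fold change of -0.05 (95% interval -0.49 to 0.38), *Nat8* of 0.02 (-0.22 to 0.26) and *Ces1g* of -0.57 (-1.45 to 0.32). The intervals of *Ces1d* (-0.34 to 0.06), *Ces1e* (-0.20 to 0.09) and *Ces1f* (-0.06 to 0.26) were narrower. For *Ces1d*, *Ces1e*, *Ces1g*, *Nat8* and *Nat8f5* the WD + CHP libraries did not overlap the CD libraries, as for 8.34% of all genes.

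The WD + CHP libraries were more spread out than the WD libraries for some *Nat8* genes. The CV of *Nat8f5* was 5.09% in WD and 30.8% in WD + CHP, and that of *Nat8* was 3.63% and 20.8%, while that of *Nat8f2* was 12.5% and 5.33%. In WD + CHP, replicate 3 was highest and replicate 4 second for *Nat8*, *Nat8f5*, *Nat8f3*, *Nat8f6* and *Nat8f7* alike, whereas *Nat8f2* was lowest in replicate 3 and *Nat8f1* highest in replicate 5. This pattern was noticed after the values were seen and was not tested. Other genes were also highest in these 2 libraries, such as *Gusb* (48.0 and 53.7 CPM, against at most 37.6 CPM in the other WD + CHP libraries), *Ccnd1* (189 and 221 CPM, against at most 170 CPM), *Mki67* (6.43 and 8.04 CPM, against at most 5.90 CPM) and *Lipa* (373 and 402 CPM, against at most 314 CPM). Their TMM scaling factors, 0.959 and 0.962, were the lowest of the 15 kidney libraries. The part of such library differences in the *Nat8* spread was not tested.

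Genes that act with the 2 families were then counted from lists, each over all genes tested and by edgeR. Of the 24 genes of glutathione conjugation and the mercapturate route, 4 were called in kidney WD vs. CD (2 higher, 2 lower), beside the 9.65% of all genes. *Gstt1*, a glutathione transferase, rose with a log2 fold change of 0.22 (adjusted p = 0.013) and *Anpep*, the aminopeptidase that frees cysteine conjugates, with 0.23 (adjusted p = 0.047). *Gstm1*, another transferase, fell with -0.28 (adjusted p = 0.040) and *Kyat3*, a cysteine conjugate β-lyase, with -0.49 (adjusted p = 0.0015). The list's median log2 fold change was -0.005, against 0.0015 over all genes. Leaving out CD replicate 4 or one of WD replicates 1 to 4 left 2 calls. Of the 18 genes tested from a list of ester and neutral lipid metabolism, which holds enzymes of hydrolysis and of synthesis, an inhibitor, lipid carriers and *Gusb*, 8 were called (3 higher, 5 lower), beside the same 9.65%. *Lpl*, lipoprotein lipase, fell with -1.27 (adjusted p = 0.0051), *Pnpla2*, the adipose triglyceride lipase, with -0.45 (adjusted p = 0.0033), *Lipe*, hormone-sensitive lipase, with -0.37 (adjusted p = 0.0021), *Soat1*, which makes cholesterol esters, with -0.36 (adjusted p = 0.0055) and *Nceh1*, a cholesterol ester hydrolase, with -0.30 (adjusted p = 0.0083). *Lipa*, the lysosomal acid lipase, rose with 0.37 (adjusted p = 0.0077). *Dgat2*, which makes triacylglycerol, and *Mgll*, monoacylglycerol lipase, rose with 0.26 and 0.20 and are named after their values were seen. The list's median was 0.06.

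Of the other carboxylesterases, 8 of 16 were tested in kidney and 3 were called for WD vs. CD, beside 9.65% of all genes. *Ces2g* rose with a log2 fold change of 0.61 (adjusted p = 0.0059), *Ces2b* fell with -1.07 (adjusted p = 0.025) and *Ces2h* fell with -0.41 (adjusted p = 0.020), all by edgeR. Without CD replicate 1, or without it and WD replicate 5, *Ces2g* alone was called. Among the proximal tubule markers 3 rose and 4 fell of 15, beside 4.62% and 5.03% of all genes. *Slc22a7*, an organic anion transporter, fell with -2.53 (adjusted p = 0.00047) and is named after its value was seen, while *Slc5a2*, the glucose transporter SGLT2, rose with 0.40 (adjusted p = 0.0046). The summed level of these markers was 41290 to 45910 CPM in CD, 37158 to 41753 CPM in WD and 41030 to 45702 CPM in WD + CHP. *Kap* alone made up 47.5% of that sum in CD and 42.6% in WD, and without it the sums were 22135 to 23645 CPM in CD and 22175 to 23624 CPM in WD. Macrophage markers (7 tested, 0 called, 127 to 144 CPM summed in CD and 119 to 151 CPM in WD) and endothelial markers (5 tested, 0 called) gave no call by edgeR, with 4 and 0 at an unadjusted p under 0.05 (24.9% of all genes). Of 7 adipocyte markers tested 1 was called lower, *Cfd* (complement factor D) with -2.47 (adjusted p = 0.031). *Cfd* was low, with overlapping groups at means of 1.89 CPM in CD and 0.335 CPM in WD, and 7 of 19 alternative settings did not call it. The median of that list was -0.22, and its summed level was 63.5 to 79.5 CPM in CD, 56.1 to 103 CPM in WD and 63.6 to 80.5 CPM in WD + CHP. Of 6 distal nephron and podocyte markers 1 was called higher, *Slc12a3*, the thiazide-sensitive salt transporter, with 0.24 (adjusted p = 0.0084). The part of any such shift in the *Ces1* and *Nat8* differences was not tested. For WD + CHP vs. WD, 0 genes of any of these lists were called in kidney by edgeR, with 11.4% of all genes at an unadjusted p under 0.05. That threshold was passed by 8 of 24 genes in the mercapturate list, 6 of 18 in the lipid list, 5 of 8 other carboxylesterases, 5 of 15 proximal tubule markers, 2 of 5 endothelial markers and 0 of 7 macrophage markers. Of the 12 hepatocyte markers 7 passed it and 0 were called, with a median log2 fold change of -2.03. Their sum was highest in WD replicate 5 (961 CPM). The adipocyte markers (7 tested) and the distal nephron and podocyte markers (6 tested) had 0.

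The genes whose kidney levels ran most alike to a member were looked up by Pearson's r of log2 CPM over the 15 libraries, among 12399 genes. The libraries share the diet groups, so r includes the difference between diets and is given as a description. *Nat8f5* ran with *Galnt3* (r = 0.97), *Mki67* (0.95) and *Ccnd1* (0.95), and *Nat8* ran with *Olfm4* (0.97), *Galnt3* (0.95) and *Ccnd1* (0.94). *Galnt3* encodes a mucin-type glycosyltransferase, and *Mki67* and *Ccnd1* encode the Ki-67 antigen and cyclin D1 of the cell cycle. *Ces1g* ran with *Apom* (0.93), the apolipoprotein of high-density lipoprotein that carries sphingosine 1-phosphate, *Slc43a1* (0.92) and *Gatd1* (0.91). *Ces1e* ran with *Hhatl* (0.94), *Slc5a2* (0.94) and *Klk1* (0.94), and *Ces1d* with *Adam11* (0.93), *Gas6* (0.91) and *Tmem132a* (0.91). The closest genes to *Ces1f*, *Nat8f1* and *Nat8f2*, which were not called, were *Anxa13* (0.83), *Rgcc* (0.87) and *Dynlt3* (0.84).

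In gastrocnemius *Ces1d* was the one member above 2 CPM. *Ces1d* measured 32.4, 24.0, 26.3, 32.8 and 28.1 CPM in CD, 33.7, 37.1, 32, 29.0 and 30.4 CPM in WD and 27.7, 20, 18.5, 38.0 and 30.6 CPM in WD + CHP. The groups overlapped, with a log2 fold change of 0.18 (SE 0.16, 95% interval -0.16 to 0.52) for WD vs. CD and -0.27 (SE 0.16, -0.61 to 0.07) for WD + CHP vs. WD. It made up 96.9% ± 0.594 of the summed CPM per kb of the 4 *Ces1* genes in CD, against 29.1% in kidney. *Ces1e*, *Ces1f* and *Nat8f1* passed the filter at under 1 CPM. *Nat8* and *Nat8f5* had at most 2 and 1 counts in any gastrocnemius library, and a count of 0 allows up to 0.0548 to 0.0611 CPM there (3 counts over the TMM-scaled library size, counting error only). *Ces1g* had 7 counts in CD replicate 1, 13 in WD replicate 3 and at most 2 elsewhere, and *Nat8f2* had 13 and 62 counts in those libraries and at most 6 elsewhere.

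For WD vs. CD in gastrocnemius, 0 of the 4 genes were called by edgeR, beside 8.63% of the 15419 genes tested, with 2 at an unadjusted p under 0.05 (23.7% of all genes) and 1 call, *Ces1f*, by each of DESeq2 and limma-voom. No gene of the 4 had groups that did not overlap, beside 7.84% of all genes. *Ces1f* measured 0.929, 0.681, 0.390, 0.672 and 0.999 CPM in CD, 0.191, 0.337, 0.822, 0.203 and 0.191 CPM in WD and 0.214, 0.210, 0.210, 0.196 and 0.286 CPM in WD + CHP, from 10 to 52 counts. The WD libraries lay below the CD libraries apart from replicate 3, one of the libraries rich in albumin, and the WD + CHP libraries all lay below the CD libraries (8.75% of all genes did not overlap between these groups). The log2 fold change was -1.06 (SE 0.36), and it was -1.66 (SE 0.28) without WD replicate 3 and -1.80 (SE 0.31) without the 3 albumin-rich libraries, where it was called. *Nat8f1* ranged from 0.653 to 0.936 CPM in CD and from 0.457 to 0.683 CPM in WD. It had -0.34 (SE 0.16) and *Ces1e* -0.11 (SE 0.27), with overlapping groups.

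For WD + CHP vs. WD in gastrocnemius, 0 of 4 were called by edgeR, DESeq2 and limma-voom (0 at an unadjusted p under 0.05 by edgeR), beside 0.409% of all genes, and 0 of 4 had groups that did not overlap, beside 2.83%. *Ces1f* had a log2 fold change of -0.64 (SE 0.41), which was 0.19 (SE 0.33) without the albumin-rich libraries. *Nat8f1* had 0.33 (SE 0.16) and *Ces1e* -0.19 (SE 0.28). Adipocyte markers moved between the groups in this muscle, as 5 of 10 rose and 1 fell for WD vs. CD and 4 fell for WD + CHP vs. WD. Of all genes, 8.63% and 0.409% were called in these comparisons. *Adipoq*, the fat hormone adiponectin, had log2 fold changes of 1.00 (adjusted p = 0.0015 by edgeR) and -1.15 (adjusted p = 0.0067), and is named after its values were seen. The marker that fell for WD vs. CD was *Cfd*, with -1.59 (adjusted p = 0.00055 by edgeR), and it had 0.0086 for WD + CHP vs. WD. Without the albumin-rich libraries the calls in the adipocyte list were 6 and 0, beside 482 and 0 of all 15625 genes tested there. Over all settings the log2 fold change of *Adipoq* for WD + CHP vs. WD lay between -1.28 and -1.05. The summed adipocyte markers were 1109 to 1536 CPM in CD, 1090 to 1559 CPM in WD and 935 to 1349 CPM in WD + CHP, but 86.8% of that sum was *Car3*, which muscle fibres also express. Without *Car3* and *Fabp4*, a choice made after the values were seen, the other 8 markers summed to 49.2 to 88.3 CPM in CD, 82.5 to 98.0 CPM in WD and 35.1 to 60.8 CPM in WD + CHP. This sum mixes opposite movements, as *Cfd* had means of 37.4, 12.4 and 12.5 CPM in these groups while 5 markers rose for WD vs. CD. *Lep*, the fat hormone leptin, had means of 1.39, 21.7 and 5.87 CPM. Of the 12 fast fibre markers 3 were called lower in WD vs. CD (*Acta1* -0.22, *Ckm* -0.26 and *Myl1* -0.30), beside 8.63% of all genes. These 3 calls were lost in 7, 8 and 11 of 20 alternative settings. The summed level of this list was 253529 to 298372 CPM in CD, 224515 to 256258 CPM in WD and 232216 to 270095 CPM in WD + CHP. *Ces1d* and *Ces1f* are known from adipocytes, and the part of fat cells or of muscle fibres in the members' levels was not tested.

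In gastrocnemius WD vs. CD the pathway lists were counted by edgeR in the same way. Of 17 genes of the lipid list tested, 4 rose, beside 8.63% of all genes called, namely *G0s2*, an inhibitor of the adipose triglyceride lipase, with a log2 fold change of 1.44 (adjusted p = 0.00093), *Dgat2* with 1.39 (adjusted p = 7.8e-06), *Pnpla3* with 0.66 (adjusted p = 0.034) and *Mgll* with 0.44 (adjusted p = 0.00067). Of 19 mercapturate genes 1 was called, a share below that of all genes. This was *Gclc*, the catalytic subunit that starts glutathione synthesis, which fell with -0.23 (adjusted p = 0.037). For WD + CHP vs. WD these 2 lists had 0 calls, with 5 of 17 and 3 of 19 genes at an unadjusted p under 0.05, beside 12.5% of all genes. Of 6 hepatocyte markers tested, 5 passed that threshold and 0 were called, with a median log2 fold change of -3.56. The sum of all 12 reached 77.8 CPM in WD replicate 3 and at most 3.59 CPM in WD + CHP. Over the 15 gastrocnemius libraries, *Ces1f* ran most alike to *Cc2d2a* (r = 0.94), *Cyp2e1* (0.88) and *Chp2* (0.87) among 10817 genes, and *Ces1d* to *Castor2* (0.85).

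**Figure D4:**
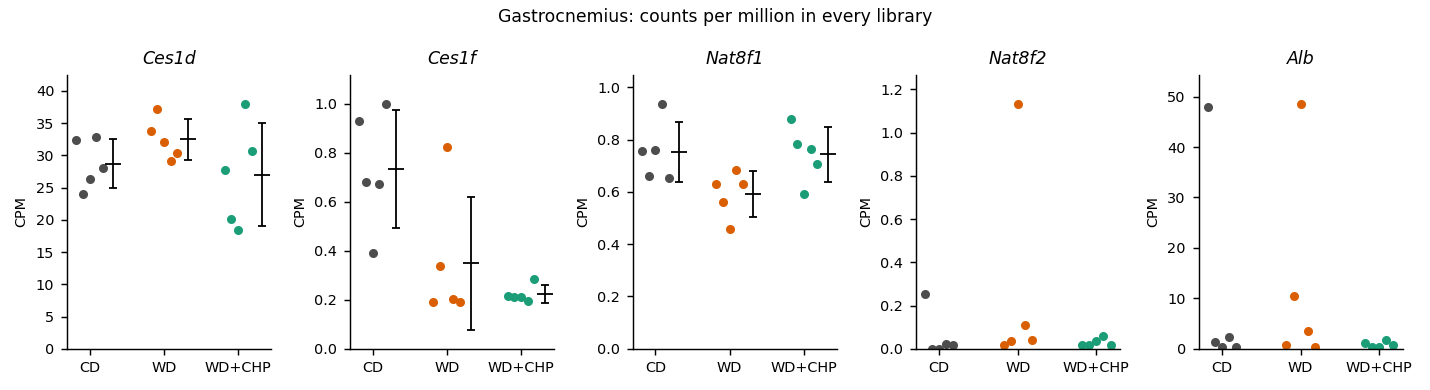
CPM (linear axis from 0, a scale of its own for each gene) in each gastrocnemius library, points for replicates 1 to 5 from left to right, with the group mean and SD (n = 5) for *Ces1d*, *Ces1f* and *Nat8f1*. *Nat8f2* was high in WD replicate 3 (1.13 CPM) and CD replicate 1 (0.252 CPM), where albumin (*Alb*) stood at 48.6 and 47.8 CPM.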

How the data were processed

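The deposited values are raw counts per gene of 30 RNA-seq libraries, made by the authors from polyA-enriched RNA sequenced on the BGISEQ-500. The submitters' processing notes name STAR 2.7.3a and GRCm38 (mm10); the counting tool, read length and strand setting are not given in the sources used here. Everything after the counts was computed here. For each tissue, all 15 libraries entered 1 model in edgeR 4.0.16 (R 4.3.3), with filterByExpr at a minimum count of 10, TMM scaling, the quasi-likelihood F test (two-sided) and Benjamini-Hochberg adjustment over all genes kept, with a threshold of 0.05. This left 17120 genes in kidney and 15419 in gastrocnemius, with common biological coefficients of variation of 9.62% and 11.6%. CPM use TMM-scaled library sizes, log2 CPM a prior count of 2, and CPM per kb the merged exon bases of GENCODE M21, in which 54723 of 54838 and 55141 of 55487 gene identifiers were found. Intervals are 95% intervals from the SE with 12 degrees of freedom. The models were tested on simulated counts.

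The members and gene lists were chosen with earlier results of these data known. Named genes were all members, their closest paralogs and *Gusb*, and up to 6 called genes per list and comparison with the largest change; for likeness, the 3 genes with the highest r at a mean log2 CPM of at least 1. By the study's methods each library is from 1 mouse. No source used here ties kidneys to muscles, so the tissues were fitted apart. Alternatives were DESeq2 1.42.0, limma-voom (limma 3.58.1), other scalings and filters, fewer groups, a replicate block, a looser threshold and each library left out. Plots used Python 3.11.15 and matplotlib 3.10.9. All columns were matched to a sample.

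A list of transcription factors is not reported here.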

Additional observations from a re-analysis of the deposited data

Results flagged for a closer look

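A library far from the other 4 of its group was searched for in 48 groups of 5 libraries, by its gap to the nearest library over the whole range (Dixon's limit 0.71), and 12 groups had one. In 6 of them the other 4 libraries are at 0 counts, so any count passes and the rate of about 1 in 20 that chance gives does not apply. In kidney, *Ces1g* in CD replicate 4 (48.1 CPM) was the one case, against 16.5 to 24.4 CPM in the other CD libraries.

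In gastrocnemius, WD replicate 3 stood out for *Ces1f* (0.822 CPM, 45 counts), *Ces1g* (0.238 CPM, 13 counts) and *Nat8f2* (1.13 CPM, 62 counts), and CD replicate 1 for *Ces1g* (0.135 CPM, 7 counts) and *Nat8f2* (0.252 CPM, 13 counts). These libraries also held the most *Ces1c*, with 1.55 and 1.37 CPM, and the most albumin. WD + CHP replicate 5 stood out for *Ces1f* (0.286 CPM, 15 counts). The other cases rest on single counts, namely *Ces1g* in WD + CHP replicate 4 (0.0196 CPM), *Nat8* in CD replicate 5 (0.0192 CPM) and WD replicate 3 (0.0183 CPM), and *Nat8f5* in CD replicate 1 (0.0193 CPM) and WD replicate 2 (0.0187 CPM).

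For 2 genes every library of the first group moved to one side of the second group's mean in kidney and to the other side in gastrocnemius. *Nat8f1* had log2 fold changes for WD vs. CD of 0.22 in kidney and -0.34 in gastrocnemius. *Ces1f* had log2 fold changes for WD + CHP vs. WD of 0.0989 in kidney and -0.64 in gastrocnemius, the latter resting on WD replicate 3. The difference between the tissues was not tested.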

How the results depend on the processing

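In kidney, 5 members were called for WD vs. CD and 0 for WD + CHP vs. WD in every alternative and with each library left out. In gastrocnemius WD vs. CD, the count was 1 (*Ces1f*) in place of 0 with DESeq2, limma-voom and an adjusted p under 0.1, 0 to 1 with each library left out (1 without WD replicate 3), and 1 without CD replicate 1 and WD replicates 2 and 3, which was chosen after the data were seen. It was 0 in the other alternatives, and it was 0 for WD + CHP vs. WD throughout. Of 454 recomputed log2 fold changes of members, 451 moved by less than 1 SD and 3 moved by more, all of *Ces1f* in gastrocnemius: -1.66 and -1.80 for WD vs. CD and 0.19 for WD + CHP vs. WD. None of the called ones changed sign. The SD here is the SE of the main fit scaled up to the spread of single libraries, so it is wider than the SE. Leaving out 1 library can seldom move a value that far, so the count of 451 is a weak check and does not show robustness. Same-numbered libraries did not deviate together (r = -0.13 to 0.15, and the own number was closest in 6 of 30 cases), so the numbers were not taken as pairs. With the replicate block, 5, 0, 0 and 0 members were called in the 4 comparisons, and over all genes the calls went from 1652 to 1582 and from 18 to 70 in kidney and from 1330 to 1147 and from 63 to 44 in gastrocnemius. Over all alternatives at the 0.05 threshold, the calls among all genes ran from 1051 to 2029 and from 0 to 194 in kidney and from 482 to 1852 and from 0 to 249 in gastrocnemius. Depth limits *Nat8*, *Nat8f2*, *Nat8f5* and *Ces1g* in gastrocnemius, where most libraries held 0 to 3 counts. The replicates were separate mice.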
